A study of Canis lupus familiaris with 5 samples.

Results

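Nitric oxide and cGMP pathway genes were followed in single nuclei of the canine cephalic vein. The 10 genes were chosen by name from 35531 named genes and all 10 were present: the nitric oxide synthases NOS1, NOS2 and NOS3, the NOS3-binding protein NOSTRIN, the soluble guanylyl cyclase subunits GUCY1A1, GUCY1A2 and GUCY1B1, the cGMP-dependent protein kinase PRKG1, and the phosphodiesterases PDE5A and PDE3A. Nitric oxide made in endothelium diffuses to neighbouring smooth muscle, where it binds the haem of soluble guanylyl cyclase, a dimer of an alpha and a beta subunit, and raises cGMP. cGMP activates kinase G, which lowers calcium and relaxes the vessel, and phosphodiesterases end the signal. Loss of endothelial nitric oxide is a known feature of injured vein grafts.

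The study profiled 5 libraries from 2 male mongrel dogs of 25 kg, whose ages are not given in the sources used here. The grafted vein (1 library, dog 1) was taken 24 h after it had been distended, excised and sewn onto the carotid artery, with bivalirudin infused systemically. The distended veins (1 library each from dogs 1 and 2) were taken after a harvest of about 30 min in which the vein was filled with saline holding papaverine, itself a phosphodiesterase inhibitor, and bivalirudin, a thrombin inhibitor. The control veins (1 library each from dogs 1 and 2) were undistended segments of the same vein. All dogs were under sodium pentothal and isoflurane, and nuclei came from snap-frozen tissue. With 1 graft, a value in it has no replicate, and its effects cannot be told apart from those of that animal's surgery.

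After filtering, 2705 nuclei remained in the graft, 2108 (dog 1) and 241 (dog 2) in the distended veins, and 765 (dog 1) and 1036 (dog 2) in the control veins. Pairs of values below keep this order of dogs. The median nucleus had 2350 UMIs in the graft, 545.5 and 498 in the distended veins, and 424 and 274 in the control veins, not counting 4 uncharacterised features that took 2.98% of UMIs in the graft, 38.5% and 26.5% in the distended veins, and 70.4% and 61.4% in the control veins. All levels are therefore given as CPM, which here means UMIs per 1000000 UMIs of all other genes. Across the 10 pairs of libraries, 3 pairs shared 1 or 2 barcodes. Libraries also differed in the share of UMIs from 78 ribosomal protein genes, which was 5.81% in the graft, 0.509% and 8.91% in the distended veins, and 2.60% and 0.456% in the control veins. The distended vein of dog 2, with the fewest nuclei and the highest ribosomal share, stood nearer the graft than the other distended vein for several genes below.

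Nuclei were classed by the marker list with most UMIs. Endothelial-like nuclei numbered 1354 in the graft, 611 and 162 in the distended veins, and 603 and 456 in the control veins. Fibroblast-like nuclei numbered 570 in the graft, 1136 and 31 in the distended veins, and 22 and 254 in the control veins. Smooth muscle-like nuclei, from clusters named by their markers, numbered 35 in the graft, 45 and 1 in the distended veins, and 40 and 18 in the control veins. All 35 of the graft lay in cluster 7, which held no other library, and all the others lay in cluster 17. Endothelial-like nuclei of different libraries lay mostly in different clusters: clusters 2, 3 and 0 in the graft, clusters 15 and 18 in the distended vein of dog 1, cluster 10 in that of dog 2, cluster 11 in the control vein of dog 1 and cluster 18 in that of dog 2. Fibroblast-like nuclei lay mostly in cluster 1 in the graft, clusters 14, 9 and 16 in the distended vein of dog 1, cluster 19 in that of dog 2 and cluster 16 in both control veins. By its markers cluster 11 was named erythroid (6 of 8, HBM leading). It held 496 of the 603 endothelial-like nuclei of the control vein of dog 1, and 692 of its 788 nuclei were endothelial-like. None of the 10 genes was in a marker list. A nucleus could have a class by marker list and another by cluster. Endothelial-like nuclei shared 4 with smooth muscle-like, 8 with lymphatic-like and 3 with macrophage/monocyte-like nuclei. Fibroblast-like nuclei shared 5, 1 and 5 with them. In library sums, fewer cells of a type and less RNA per cell cannot be told apart, so for the 10 genes levels within a class stand beside the whole-vein values.

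Most of the genes lay either in an endothelial set or in a wall set. Of all UMIs, 70.2% were in endothelial-like, 16.03% in fibroblast-like and 0.961% in smooth muscle-like nuclei. Endothelial-like nuclei held 94.3% of the 35 NOS1 UMIs, 94.5% of the 1571 NOS3 UMIs, 93.8% of the 385 NOSTRIN UMIs, 94.7% of the 1127 GUCY1A1 UMIs and 94.1% of the 322 GUCY1B1 UMIs. Fibroblast-like and smooth muscle-like nuclei each held 46.6% of the 232 GUCY1A2 UMIs, where nuclei in both classes count in both. PRKG1, with 7056 UMIs, had 42.5% of them in fibroblast-like nuclei, 22.3% in smooth muscle-like nuclei and 14.6% in endothelial-like nuclei. PDE5A had 67.6% of its 256 UMIs in fibroblast-like nuclei and 12.1% in smooth muscle-like nuclei, each share above that class's part of all UMIs. PDE3A, with 4632 UMIs, had 72.4% in endothelial-like and 16.1% in fibroblast-like nuclei, near their parts of all UMIs, and 4.84% in smooth muscle-like nuclei, above theirs. NOS2, with 13 UMIs, had 38.5% in lymphatic-like, 30.8% in fibroblast-like and 15.4% in endothelial-like nuclei. By share of UMIs the alpha subunits thus differed: GUCY1A1 lay mostly with GUCY1B1 in endothelial-like nuclei, whereas GUCY1A2 lay mostly with PRKG1 in the wall. Smooth muscle-like nuclei held 7 UMIs of GUCY1A1 and 2 of GUCY1B1. That is 0.621% of each gene's UMIs, beside 0.961% of all UMIs in this class. So few UMIs cannot show whether smooth muscle-like nuclei lack either gene. These shares pool libraries of unequal size and describe where UMIs were counted, with no test.

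**Figure D1:**
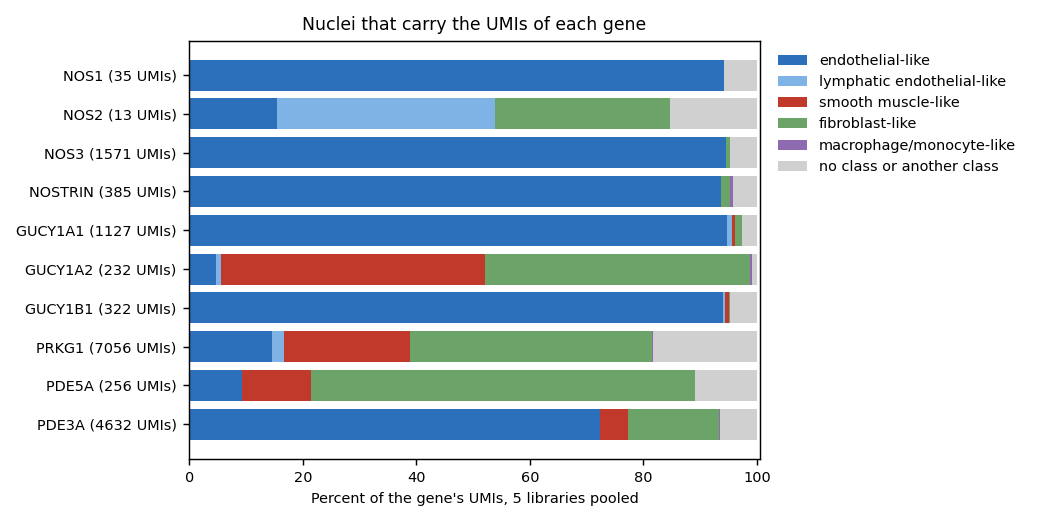
Share of each gene's UMIs (percent, horizontal axis) carried by each class of nuclei, with the 5 libraries pooled and the number of UMIs beside each gene name. NOS1, NOS3, NOSTRIN, GUCY1A1 and GUCY1B1 have over 93% in endothelial-like nuclei, while GUCY1A2, PRKG1 and PDE5A lie mainly in fibroblast-like and smooth muscle-like nuclei.

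Other classes give the level of free RNA for the endothelial set. NOS3 had a UMI in 8 of 2013 fibroblast-like nuclei (0.397%, median depth 597 UMIs) against 814 of 3186 endothelial-like nuclei (median depth 961.5 UMIs). All 8 were in the graft, where they made 1.40% of 570 fibroblast-like nuclei. Of the rest of the set, fibroblast-like nuclei held 13 UMIs of GUCY1A1, 6 of NOSTRIN, 1 of GUCY1B1 and 0 of NOS1. Macrophage/monocyte-like nuclei held 2 UMIs of NOSTRIN. NOS1, NOS3, GUCY1A1, GUCY1B1 and PDE5A had no UMI in 188 macrophage/monocyte-like nuclei, which allows up to 1.60% of such nuclei to have a UMI (median depth 435.5 UMIs). At that depth a nucleus that expresses a gene can lack its UMI, so this does not limit expression. Intervals and limits here and below cover counting error only.

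NOS3, the endothelial nitric oxide synthase, had 118 CPM in the graft, 90.1 (dog 1) and 172 (dog 2) in the distended veins, and 112 (dog 1) and 138 (dog 2) in the control veins. Within endothelial-like nuclei its level was 150 CPM in the graft, 236 and 199 in the distended veins, and 121 and 236 in the control veins. The graft lay inside the range of the control veins on both scales, and the distended and control veins overlapped. In endothelial-like nuclei the distended veins averaged 217.5 ± 26.7 CPM and the control veins 178.7 ± 81.7 (SD, n = 2 each).

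The share of endothelial-like nuclei with a NOS3 UMI was 43.5% in the graft, 17.5% and 20.4% in the distended veins, and 7.96% and 8.11% in the control veins. Nuclei were then thinned to 200 UMIs, which left out 0 endothelial-like nuclei in the graft, 15 and 1 in the distended veins, and 40 and 77 in the control veins, for fewer UMIs than that. The thinned shares were 4.14% in the graft, 6.54% and 9.94% in the distended veins, and 2.66% and 4.75% in the control veins. The graft was far above all other libraries before thinning and inside the control range at equal depth. The thinned shares of both distended veins exceeded both control shares.

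NOS1, the neuronal synthase, was a rare transcript of endothelial-like nuclei. It had 2 UMIs in the graft (0.184 CPM), 6 and 0 in the distended veins (4.01 and 0 CPM), and 17 and 10 in the control veins (34.0 and 29.5 CPM). Every control value exceeded every distended value, and the graft had the deepest library and one of the lowest levels. Nuclei with a NOS1 UMI among endothelial-like nuclei numbered 2 in the graft, 5 and 0 in the distended veins, and 16 and 7 in the control veins, and 0 of 162 in the distended vein of dog 2 allows a share of up to 1.85%.

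Pooled over each group, NOS1 CPM stood at 0.0057 of the control level in the graft (exact 95% interval 0.000657 to 0.0227) and at 0.105 of it in the distended veins (0.0354 to 0.259). These intervals cover counting error alone and not the difference between animals. With the distended vein of dog 1 left out, the other distended vein was at least 3.00-fold lower than the control veins, taking 3 counts as the limit of its 0. NOS1 had no UMI in 2013 fibroblast-like nuclei (a limit of 0.149%), nor in any smooth muscle-like, lymphatic-like or macrophage/monocyte-like nucleus. Neuronal markers were scarce in all libraries: the list of 8 genes summed to 78.5 CPM in the graft, 20.7 and 118 in the distended veins, and 68.1 and 73.7 in the control veins, with STMN2 and NEFL at 0 throughout. A list of 10 skeletal muscle genes summed to 9.18 CPM in the graft, 13.4 and 3.58 in the distended veins, and 10.0 and 11.8 in the control veins, and CKM, MYH1 and MYH2 were at 0.

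NOS2, the inducible synthase of activated immune and vascular cells, had 5 UMIs in the graft, 5 and 1 in the distended veins, and 0 and 2 in the control veins. It did not pass the filter on low counts and was not tested. No group stood out at this depth.

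NOSTRIN, which binds NOS3 and draws it from the plasma membrane into vesicles, had 8.62 CPM in the graft, 134 and 50.1 in the distended veins, and 102 and 73.7 in the control veins. In endothelial-like nuclei it had 10.9 CPM in the graft, 338 and 50.7 in the distended veins, and 107 and 133 in the control veins. The graft lay below all 4 other libraries on both scales. The distended veins lay on either side of the control veins. After thinning, 0.369% of graft endothelial-like nuclei had a NOSTRIN UMI, against 6.71% and 2.48% in distended veins and 2.84% and 2.37% in control veins.

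GUCY1A1, the alpha-1 subunit of soluble guanylyl cyclase, had 32.4 CPM in the graft, 295 and 17.9 in the distended veins, and 368.3 and 421.3 in the control veins. Its distended and control values did not overlap in the whole vein. In endothelial-like nuclei the levels were 42.4 CPM in the graft, 745 and 21.1 in the distended veins, and 396 and 715 in the control veins. Here the distended vein of dog 1 was the highest of the 5 and that of dog 2 the lowest, so the distended mean of 383 ± 512 had an SD larger than itself, against 556 ± 225 in the control veins (n = 2 each). Thinned shares of endothelial-like nuclei with a UMI followed the same order, at 0.960% in the graft, 13.8% and 0.621% in the distended veins, and 7.28% and 12.7% in the control veins.

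GUCY1B1, the obligate beta-1 partner, had 18.7 CPM in the graft, 33.4 and 14.3 in the distended veins, and 72.1 and 82.5 in the control veins. Both distended values lay below both control values, with means of 23.8 ± 13.5 in distended veins and 77.3 ± 7.39 in control veins (SD, n = 2 each). Within endothelial-like nuclei the values were 24.0 CPM in the graft, 85.3 and 16.9 in the distended veins, and 73.9 and 138 in the control veins. The whole-vein separation was thus not seen within the class, where the distended vein of dog 1 lay between the control veins.

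Endothelial-like nuclei with a UMI of the beta subunit more often had a UMI of the alpha-1 subunit too. A GUCY1A1 UMI was found in 44.0% of the 234 nuclei positive for GUCY1B1 and in 18.7% of the nuclei negative for it. The share was higher among positive nuclei in every library: 35.8% against 13.4% in the graft, 70.5% against 34.2% and 25.0% against 1.90% in the distended veins, and 41.4% against 19.9% and 47.8% against 17.8% in the control veins. Positive nuclei were also deeper, with a median of 3350.5 UMIs against 888.5, and the part of depth in this was not tested.

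GUCY1A2, the alpha-2 subunit, had 4.59 CPM in the graft, 80.8 and 32.2 in the distended veins, and 90.1 and 20.6 in the control veins. The graft was the lowest library, and distended and control veins overlapped. Within smooth muscle-like nuclei it had 192 CPM (exact Poisson 95% interval 102 to 329) in the graft, 1692 (1260 to 2225) in the distended vein of dog 1, and 1652 (1190 to 2232) in the control vein of dog 1. The distended vein of dog 2 and the control vein of dog 2 held under 20 such nuclei and are left out of these values. All 3 values come from dog 1, and the graft's come from cluster 7 and the others from cluster 17, for every gene given in this class. No test between them is possible.

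**Figure D2:**
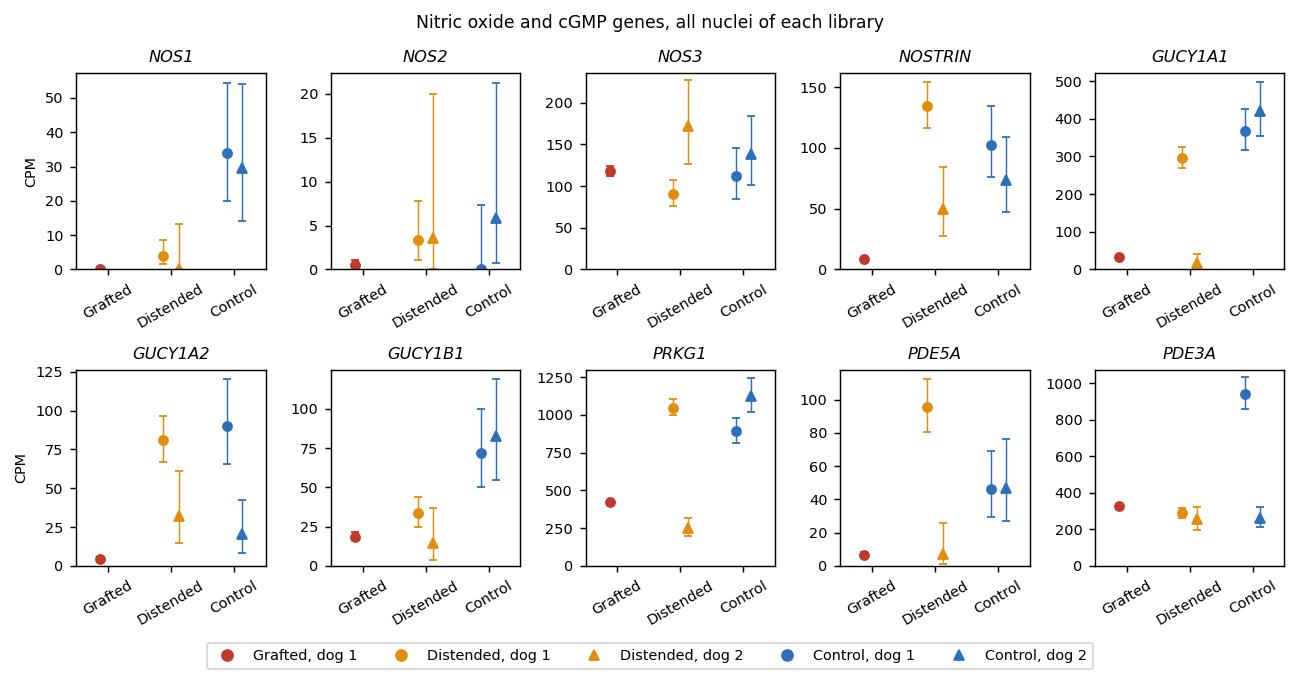
CPM of each gene in all nuclei of each library (vertical axes, linear, from 0), grouped as grafted, distended and control, with circles for dog 1, triangles for dog 2 and bars for the exact Poisson 95% interval of the count. NOS1, GUCY1A1 and GUCY1B1 are lower in both distended veins than in both control veins, and NOS3 overlaps across groups.

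PRKG1, the cGMP-dependent kinase of smooth muscle, was found in most smooth muscle-like nuclei of every library. In smooth muscle-like nuclei it had 11667 CPM (10867 to 12511) in the graft, 12508 (11277 to 13837) in the distended vein of dog 1 and 12426 (11094 to 13875) in the control vein of dog 1. These 3 intervals overlap. A PRKG1 UMI was found in 97.1% of those nuclei in the graft, 88.9% in the distended vein and 92.5% in the control vein. In the whole vein it had 421 CPM in the graft, 1049 and 250 in the distended veins, and 895 and 1128 in the control veins, and the distended vein of dog 2 held 1 smooth muscle-like nucleus. In endothelial-like nuclei it had 96.0 CPM in the graft, 192 and 50.7 in the distended veins, and 224 and 190 in the control veins.

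The smooth muscle markers themselves were lower in the graft. The 11 genes summed to 7803 CPM in smooth muscle-like nuclei of the graft, 21334 in the distended vein of dog 1 and 28549 in the control vein of dog 1. GUCY1A2 and PDE5A were lowest in the graft along with that sum, while the intervals of PRKG1 overlapped. The part of the class's makeup in this was not tested.

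PDE5A, which hydrolyses cGMP and is the target of sildenafil, had 6.61 CPM in the graft, 95.5 and 7.15 in the distended veins, and 46.0 and 47.1 in the control veins. The graft and the distended vein of dog 2 had the lowest levels. That of the distended vein came from 2 UMIs (exact Poisson 95% interval 0.866 to 25.8 CPM). This library held 31 fibroblast-like nuclei and 1 smooth muscle-like nucleus. In smooth muscle-like nuclei PDE5A had 44.4 CPM in the graft, from 3 UMIs, 332 in the distended vein of dog 1 and 629 in the control vein of dog 1.

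PDE3A, a cAMP phosphodiesterase that cGMP inhibits, had 327 CPM in the graft, 290 and 254 in the distended veins, and 943 and 262 in the control veins. The control vein of dog 1 stood apart from the other 4 libraries, and endothelial-like nuclei showed the same, at 320 CPM in the graft, 377 and 279 in the distended veins, and 967 and 340 in the control veins. Smooth muscle-like nuclei gave another order, with 2843 CPM (2455 to 3275) in the graft, 265 in the distended vein of dog 1 and 786 in the control vein of dog 1. Of the 4 genes plotted for this class, PDE3A alone had a level highest in the graft, where 68.6% of the nuclei had a UMI, against 15.6% in the distended vein and 27.5% in the control vein. Thinned to 200 UMIs, the shares were 25.7% in the graft, 2.27% in the distended vein and 17.9% in the control vein.

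**Figure D3:**
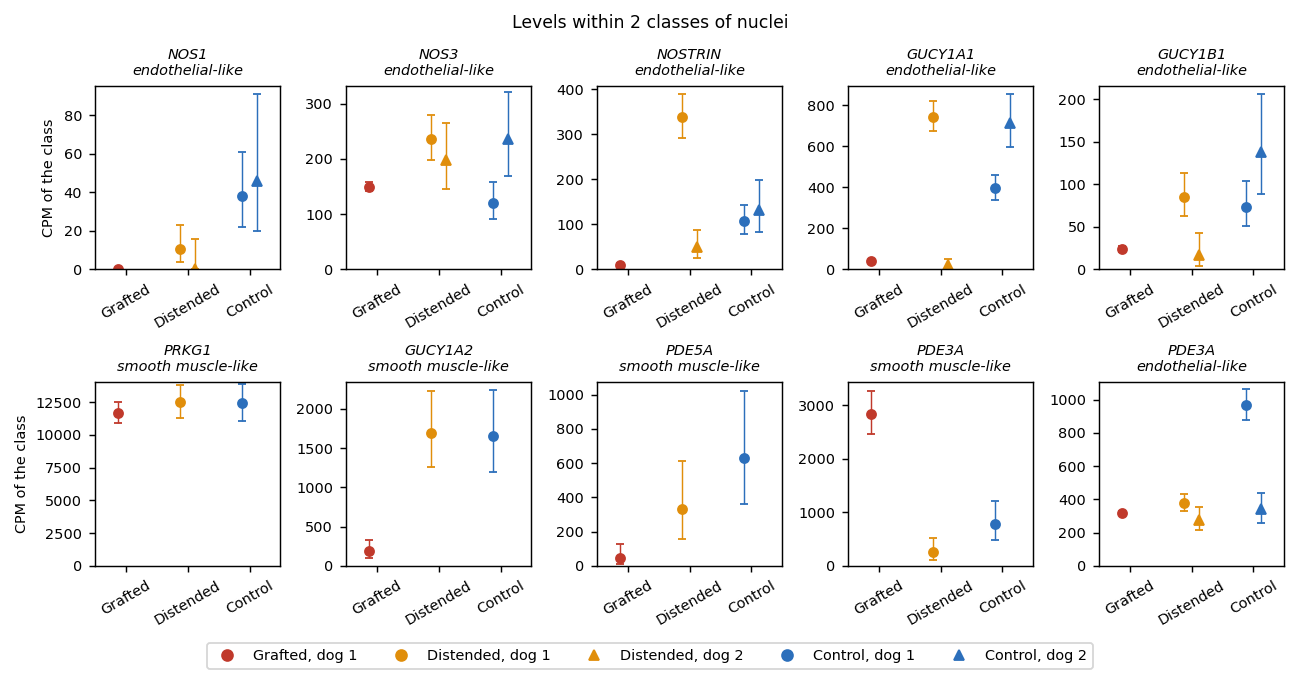
CPM within the class (vertical axes, linear, from 0) for 5 genes and PDE3A in endothelial-like nuclei and 4 genes in smooth muscle-like nuclei, by group, where a library held 20 or more such nuclei. Circles are dog 1, triangles dog 2 and bars the exact Poisson 95% interval; PRKG1 lies between 11667 and 12508 in the 3 libraries shown, and GUCY1A2 is lower in the graft (192) than in the other 2.

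Fibroblast-like nuclei carried the wall set too. PRKG1 had 1408 CPM there in the graft, 1241 and 1824 in the distended veins, and 4394 and 2070 in the control veins. GUCY1A2 had 18.0 in the graft, 94.2 and 429 in the distended veins, and 1388 and 13.1 in the control veins, so that the control veins spanned all others. PDE5A had 32.2 in the graft, 162 and 0 in the distended veins, and 694 and 105 in the control veins. The control vein of dog 1 gave 22 such nuclei and 4324 UMIs, which leaves its values imprecise. Of these 22, 1 was also smooth muscle-like. GUCY1A2 had 45 UMIs in that library, with 42 in smooth muscle-like and 6 in fibroblast-like nuclei, so some counted in both. The fibroblast marker list summed to 4031 CPM in the graft, 14229 and 7562 in the distended veins, and 16651 and 14580 in the control veins. The same list set the class, with at least 2 of its UMIs needed, so its sum there depends in part on depth. Median depth in the class was 1996.5 UMIs in the graft, 517 and 412 in the distended veins, and 162 and 268.5 in the control veins. These sums therefore do not show a change of the markers.

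Whole-vein sums of the 5 libraries were tested with edgeR's quasi-likelihood test, with Benjamini-Hochberg adjustment over 13170 genes. For the distended against the control veins no gene passed an adjusted p of 0.05 (0% of genes tested; 168 genes at an unadjusted p under 0.05; 1 gene with DESeq2). The largest member difference was NOS1, with a log2 fold change of -3.48 (SE 1.21, edgeR adjusted p = 1), lower in 2 of 2 distended veins. GUCY1B1 followed at -1.67 (SE 0.78), GUCY1A1 at -1.32 (SE 1.12), PDE3A at -1.20 (SE 0.83) and PRKG1 at -0.67 (SE 0.93). NOS3 (-0.05, SE 0.62), GUCY1A2 (0.02, SE 0.88), NOSTRIN (0.06, SE 0.72) and PDE5A (0.20, SE 1.04) lay near 0. NOS1, GUCY1A1 and GUCY1B1 were the 3 of 9 members tested whose distended values all lay below the control values, where 9.11% of all genes did so, and 0 of 9 lay all above, where 14.3% of all genes did. The members' median log2 fold change was -0.67, against 0.08 over all genes. Leaving out the distended vein of dog 1 brought GUCY1A1 to -4.63 (SE 1.16, edgeR adjusted p = 0.0106; 0.0106 to 1 over its alternatives). PRKG1 stood at 0.0491 without the distended vein of dog 2, and PDE3A at 0.0339 without the control vein of dog 1, and the genes near 0 changed sign with single libraries too.

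For the graft against the control veins no gene passed either (0% of genes tested; 1115 genes at an unadjusted p under 0.05; 116 genes with DESeq2). All 9 members tested had negative log2 fold changes. NOS1 had -7.26 (SE 1.78), GUCY1A1 -3.76 (SE 1.65), GUCY1A2 -3.74 (SE 1.29), NOSTRIN -3.49 (SE 1.05), PDE5A -2.96 (SE 1.45) and GUCY1B1 -2.20 (SE 1.00), each with an edgeR adjusted p of 0.578. PRKG1 (-1.42, SE 1.22), PDE3A (-1.02, SE 1.04) and NOS3 (-0.24, SE 0.75) had edgeR adjusted p-values of 0.690, 0.734 and 0.919. By level, 7 of 9 members were at least 2-fold lower in the graft than in both control veins, where 11.5% of all genes were, and 0 of 9 were 2-fold higher than both, where 23.3% of all genes were. The members' median was -2.96, against 0.12 over all genes. Without the control vein of dog 1 PDE3A stood at 0.24.

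The call for the graft changed when a distended library was left out. The spread is then estimated from the control veins alone, with 1 residual degree of freedom among libraries. Without the distended vein of dog 1, edgeR adjusted p-values against the control veins were 0.00243 for NOS1, 0.0106 for GUCY1A1, 0.0135 for NOSTRIN and 0.0154 for GUCY1A2. Without the distended vein of dog 2 they were 0.00446 for NOS1, 0.0173 for NOSTRIN, 0.0268 for GUCY1A2 and 0.0372 for GUCY1A1. On all 5 libraries NOS1 had an adjusted p of 0.0163 with DESeq2. With the dogs crossed as a block it had an edgeR adjusted p of 0.0354. Crossing sets each distended vein with the other dog, against the labels, so no conclusion is drawn from that fit. The log2 fold changes of these calls lay between -7.62 and -3.48. Over all alternatives the adjusted p ran to 0.867 for NOS1, NOSTRIN and GUCY1A2 and to 0.930 for GUCY1A1.

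For the graft against the distended veins no gene passed (0% of genes tested; 702 genes at an unadjusted p under 0.05; 32 genes with DESeq2). NOS1 had -3.78 (SE 1.60), GUCY1A2 -3.76 (SE 1.29), NOSTRIN -3.55 (SE 1.05), PDE5A -3.16 (SE 1.46) and GUCY1A1 -2.44 (SE 1.52). NOSTRIN and GUCY1A2 were the 2 of 9 members at least 2-fold lower in the graft than in both distended veins, where 6.46% of all genes were, and 0 of 9 were 2-fold higher than both, where 11.6% were. The median was -2.44, against 0.01 over all genes. Without the distended vein of dog 2, NOSTRIN, GUCY1A2 and PDE5A had edgeR adjusted p-values of 0.00986, 0.0178 and 0.0194, each reaching 1 under another alternative. Without that of dog 1, 4 of 9 members were lower, against 8 of 9 with it, and GUCY1A1 stood at 0.88 and NOS1, at 0 in the remaining distended vein, had a positive fitted value. The comparisons share libraries, so their values are not independent of each other.

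**Figure D4:**
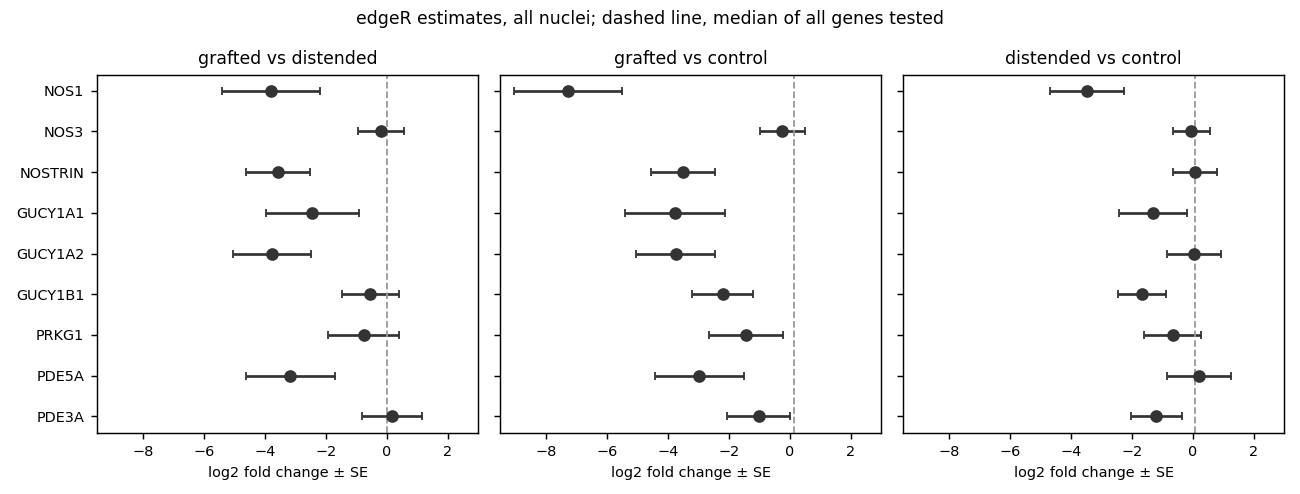
edgeR log2 fold changes with SE bars (horizontal axes) for the 9 genes tested in all nuclei, in the 3 comparisons, with the median of all genes tested as a dashed line. In the graft against the control veins all 9 points lie below 0, from -0.24 for NOS3 to -7.26 for NOS1, and none passes an adjusted p of 0.05.

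Within endothelial-like nuclei 8 members were tested among 10949 genes, and again no gene passed in any comparison (0% of genes tested). At an unadjusted p under 0.05 there were 224 genes for the distended and 1195 for the grafted against the control veins, and 525 for the graft against the distended veins. DESeq2 called 0 genes for the distended and 76 for the grafted against the control veins, and 12 for the graft against the distended veins. With the dog as a block edgeR called 6 genes for the graft against the control veins, none of them a member. NOS1 had -7.19 (SE 1.73, edgeR adjusted p = 0.323) in the graft against the control veins, with GUCY1A1 at -3.85 (SE 1.86), NOSTRIN at -3.58 (SE 1.24), GUCY1B1 at -2.26 (SE 1.11) and NOS3 at -0.38 (SE 0.83). At least 2-fold below both control veins were 5 of 8 members, where 11.5% of all genes were, and 0 of 8 were 2-fold above both, where 24.4% were. For the distended against the control veins NOS1 alone of 8 members lay below in both, where 10.2% of all genes did (0 of 8 lay above, against 15.3% of all genes), at -2.70 (SE 1.16, edgeR adjusted p = 1), while NOSTRIN had 0.68 (SE 0.86) and NOS3 0.22 (SE 0.68). Below both distended veins by 2-fold were 2 of 8 members, where 5.55% of all genes were, and 0 of 8 were 2-fold above both, where 9.76% were.

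Other fits called members here as well. For the graft against the control veins NOS1 had an edgeR adjusted p of 0.0210 without a count filter, on all 5 libraries. With the dogs crossed as a block, against the labels, it had an edgeR adjusted p of 0.00322. Without the distended vein of dog 1, GUCY1A1 in distended against control endothelial-like nuclei had -4.85 (edgeR adjusted p = 0.0113), and in the graft against the control veins NOS1, NOSTRIN and GUCY1A1 had edgeR adjusted p-values of 3.73e-04, 0.00741 and 0.0135. Those 3 genes, without the distended vein of dog 2, had 2.59e-04, 0.00160 and 0.0207, and NOSTRIN in the graft against the distended vein of dog 1 had 5.33e-05. Under other alternatives the adjusted p of these calls ran to between 0.592 and 1.

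The endothelial marker list of 18 genes moved in part with these members, but the same list set the class. Entry needed at least 2 of its UMIs, so its sum within the class depends in part on depth. Median depth there was 3712.5 UMIs in the graft, 681 and 620 in the distended veins, and 471 and 334 in the control veins. In endothelial-like nuclei the list summed to 6835 CPM in the graft, 15313 and 7211 in the distended veins, and 15234 and 15243 in the control veins. The graft and the distended vein of dog 2 were thus low for the list, for GUCY1A1 and GUCY1B1, and high for ribosomal protein genes (7.36% in the graft, 0.910% and 10.3% in the distended veins, and 2.86% and 0.531% in the control veins of this class). NOS3 did not share that pattern. A neutrophil list summed to 804 CPM in the graft, 89 and 354 in the distended veins, and 14 and 1229 in the control veins. The part of these in the members' differences was not tested.

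In fibroblast-like nuclei the 4 members tested were PRKG1, GUCY1A2, PDE5A and PDE3A, and none passed with the classes and count filter above. Other settings called some. GUCY1A2 in the graft against the distended veins had an edgeR adjusted p of 0.277. Clusters named fibroblast by the fixed rule at resolutions 0.8 and 1.5 held under 20 nuclei of the distended vein of dog 2. Those fits lack that vein, and the distended vein of dog 1 stands alone in them. GUCY1A2 had log2 fold changes of -4.03 and -3.96 there in the graft against the distended vein of dog 1. With the classes above and the distended vein of dog 2 left out, it had -2.73. Under that cluster rule GUCY1A1 had -4.39 and -5.47 in the graft against the control veins. Against the distended vein of dog 1 it had -2.89 and -3.95. Without a count filter NOS3 had a log2 fold change of 4.59 in the graft against the distended veins (edgeR adjusted p = 0.0498), from the 8 graft nuclei with a UMI. edgeR called 51 of 5722 genes for the graft against the control veins (0.891%), 161 for the graft against the distended veins (2.81%) and 0 for the distended against the control veins (72 at an unadjusted p under 0.05, 0 with DESeq2). PDE5A was the 1 of 4 members at least 2-fold lower in the graft than in both control veins (9.37% of all genes), and GUCY1A2 the 1 of 4 at least 2-fold lower than in both distended veins (8.6% of all genes). PRKG1 was the 1 of 4 lower in both distended than in both control veins (7.57% of all genes). By the same rules 0 of 4 members were higher, against 31.5% of all genes for the graft over the control veins, 16% for the graft over the distended veins and 23.9% for the distended over the control veins. With the dog as a block edgeR called 14 genes for the graft against the control veins and 363 for the graft against the distended veins. It called 1 for the distended against the control veins. Leaving out the control vein of dog 2 gave 0 calls for the graft against the control veins, and leaving out the distended vein of dog 1 gave 1 for the graft against the distended veins, with up to 136 and 3019 when other single libraries were left out. The 31 nuclei of the distended vein of dog 2 and the 22 of the control vein of dog 1 limit what these sums can show.

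Of 98 further genes of the pathway, 95 were in the files, and 68 were tested in the whole vein. None passed in any of the 3 comparisons. Their median log2 fold change was -0.05 for the distended against the control veins, -0.09 for the graft against the control veins and 0.00 for the graft against the distended veins, where the medians of all genes were 0.08, 0.12 and 0.01. Distended values lay all above the control values for 2 of the 68, where 14.3% of all genes did, and all below for 7, where 9.11% did. The graft was at least 2-fold above both control veins for 11 of them, where 23.3% of all genes were, and at least 2-fold below both for 9, where 11.5% were. Levels of the list's genes are whole-vein values unless a class is named, and fewer cells of a type cannot be told apart from less RNA in them.

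Among genes that supply the synthases, arginase 2 (ARG2), which competes with them for arginine, had 132 CPM in the graft, 1.34 and 35.8 in the distended veins, and 0 and 8.84 in the control veins. The arginine methyltransferase PRMT1, whose products include a synthase inhibitor, had 159 CPM in the graft, 5.34 and 143 in the distended veins, and 14.0 and 8.84 in the control veins. DYNLL1, a dynein light chain first described as an inhibitor of NOS1, had 157 CPM in the graft, 6.68 and 150 in the distended veins, and 24.0 and 11.8 in the control veins. For PRMT1 and DYNLL1 the distended vein of dog 2 stood with the graft. ASS1, which rebuilds arginine from citrulline, had 2.39 CPM in the graft, 9.35 and 0 in the distended veins, and 122 and 2.95 in the control veins, so its fitted difference rested on the control vein of dog 1. SLC7A2, an arginine transporter, had 68.6 CPM in the graft, 40.7 and 21.5 in the distended veins, and 152 and 47.1 in the control veins.

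ARG2 was the only gene of the list called by edgeR in the 3 comparisons of the whole vein, endothelial-like and fibroblast-like nuclei as designed. It was 1 of 33 genes of the list tested in fibroblast-like nuclei for the graft against the distended veins. There 2.81% of all genes were called, so the list's share was near that of all genes. In fibroblast-like nuclei it rose in the graft against the distended veins, with 200 UMIs (149.8 CPM) in the graft and 0 in both distended veins and both control veins. Its level in endothelial-like nuclei of the graft was close to that, at 129.8 CPM from 1048 UMIs, against 1.78 and 33.8 in the distended veins and 0 in both control veins, and the part of free RNA in the fibroblast-like value was not tested. The graft was at least 37.5-fold higher than the distended veins, taking 3 counts over the group as the limit of their 0. The edgeR adjusted p was 0.000967 over 5722 genes, and it was 1 without the distended vein of dog 1 and 0.998 with the dogs crossed as a block. Over all alternatives it ran from 4.60e-10 to 1. DESeq2 gave no adjusted p. The neutrophil list summed in fibroblast-like nuclei to 511 CPM in the graft, 23 and 375 in the distended veins, and 0 and 144 in the control veins, and its part in the ARG2 value was not tested.

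Natriuretic peptide genes feed the other, membrane-bound route to cGMP. The receptor cyclase NPR1 had 22.6 CPM in the graft, 95.5 and 14.3 in the distended veins, and 112 and 133 in the control veins. NPR2, the receptor for C-type natriuretic peptide, had 21.7 in the graft, 18.7 and 14.3 in the distended veins, and 32.0 and 32.4 in the control veins. In whole-vein sums both receptors were lower in all 3 operated libraries than in both control veins. Within endothelial-like nuclei NPR1 had 25.5 CPM in the graft, 180 and 12.7 in the distended veins, and 112 and 190 in the control veins, so that distended and control veins overlapped. NPR2 kept its order there, with 24.5 CPM in the graft, 23.1 and 16.9 in the distended veins, and 29.1 and 34.6 in the control veins. That order rests on 13 and 4 UMIs in the distended veins and 13 and 6 in the control veins. In whole-vein sums NPR2 had 28 and 4 UMIs in the distended veins and 16 and 11 in the control veins. The peptide itself, NPPC, had 7.52 CPM in the graft, from 82 UMIs, and 0 in the other 4 libraries, which puts the graft at least 4.46-fold above the distended veins and at least 2.10-fold above the control veins.

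Other phosphodiesterases differed by library. PDE9A, a cGMP-specific enzyme, had 6.97 CPM in the graft, 95.5 and 14.3 in the distended veins, and 168 and 91.3 in the control veins. PDE1C, activated by calmodulin, had 6.97 in the graft, 37.4 and 14.3 in the distended veins, and 12.01 and 150.3 in the control veins. PDE3B, related to PDE3A, had 43.7 in the graft, 12.7 and 0 in the distended veins, and 10.0 and 29.5 in the control veins. PDE9A and PDE1C were lowest in the graft and PDE3B was highest there.

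PDE1A, also activated by calmodulin, had 3.85 CPM in the graft, 22.0 and 7.15 in the distended veins, and 6.004 and 5.893 in the control veins. PDE7B, a cAMP-specific enzyme, had 145 in the graft, 191 and 75.1 in the distended veins, and 352 and 212 in the control veins. PDE8B, another cAMP-specific enzyme, had 3.21 in the graft, 106 and 3.58 in the distended veins, and 2.00 and 103 in the control veins, and so divided both groups of 2. In whole-vein sums only PDE1A and the kinase ROCK2 were higher in both distended veins than in both control veins. For PDE1A this rests on 33 and 2 UMIs in the distended veins and 3 and 2 in the control veins. In endothelial-like nuclei its order was the opposite, at 1.78 and 4.23 CPM in the distended veins and 6.72 and 5.77 in the control veins, from 1 to 3 UMIs each. ROCK2 overlapped in that class, with 172.418 and 232 CPM in the distended veins and 172.423 and 138 in the control veins.

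Genes downstream of kinase G gave no common direction: 11 of 22 had positive and 11 had negative log2 fold changes in the graft against the control veins. MYLK, the kinase that drives contraction, had 6.33 CPM in the graft, 160 and 3.58 in the distended veins, and 116 and 100 in the control veins. PLN, the phospholamban that restrains the calcium pump, had 10.3 CPM in the graft, 0.668 and 0 in the distended veins, and 0 in both control veins, which puts the graft at least 2.87-fold above the control veins. RGS2, which kinase G activates to quench receptor signalling, had 322 CPM in the graft, 39.4 and 140 in the distended veins, and 26.0 and 162 in the control veins. The graft was the highest library for PLN and RGS2.

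ROCK2, the kinase that opposes relaxation, had 359 CPM in the graft, 219 and 240 in the distended veins, and 178 and 171 in the control veins. ITPR1, a calcium release channel, had 62.0 in the graft, 222 and 71.5 in the distended veins, and 252 and 162 in the control veins. ITPR2, of the same family, had 732 in the graft, 890 and 715 in the distended veins, and 1815 and 1108 in the control veins. Each of the channels was lower in the graft than in both control veins.

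The genes whose levels over 18 sums of class by library were most like each member's, by Pearson's r of log2 levels, are given as a description. For GUCY1B1 they were EGLN3 (0.94), CLEC14A (0.93) and ALDH1A2 (0.88), and for GUCY1A1 they were STK33 (0.91), CFAP100 (0.88) and TCAF1 (0.87). NOS3 was like SLC1A4 (0.92) and SEMA6B (0.84), and NOSTRIN was most like CDH8, CHST7 and ACE (0.91 each). In the wall set GUCY1A2 and PRKG1 were among each other's nearest genes (0.86), beside PXDNL (0.89) for GUCY1A2 and KLHL29 (0.88) for PRKG1. PDE5A was most like KIAA0408 (0.95), RORB (0.95) and SYNPO2 (0.92), and PDE3A was most like FARP1 (0.90), SNX4 (0.89) and RARS1 (0.89). The 18 sums share libraries and depth, so no p is given.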

How the data were processed

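Raw UMI counts per gene and nucleus were deposited by the authors for each library, made with Cell Ranger 7.0.0, per the submitters' processing notes. The sources used here do not name a build. The kit was a 10x Chromium 3′ kit, per the labels' protocols. The 10 genes and all gene lists were chosen with earlier results of these data known. Suffixes were removed from gene names; 24 of 35555 features name no gene (0.588% to 11.5% of UMIs) and stayed out of all totals. Barcodes with under 100 detected genes were removed, leaving 6855 of 7391. Per library, 339404 to 10899093 UMIs remained beside the 4 dominant features.

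Nuclei were clustered with scanpy 1.11.5 (20 clusters). The cluster naming rule left 11 unnamed, most endothelial ones among them, so endothelial-like and fibroblast-like nuclei are those classed singly by the marker list with most UMIs (at least 2, no tie); smooth muscle-like, lymphatic-like and macrophage/monocyte-like nuclei come from named clusters. Scrublet marked 28 nuclei (0.408%), too few to have worked, and no nucleus was removed as a doublet.

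Counts were summed per library and class and tested with edgeR 4.0.16 (R 4.3.3; TMM, filterByExpr, 1 mean per group, two-sided, Benjamini-Hochberg over all genes tested, threshold 0.05), after a check on simulated data. The lone graft is assumed to vary like the other libraries. Separate veins of 2 dogs are the replicates, and an exact test of 2 against 2 libraries cannot go below p = 0.333. Alternatives were DESeq2 1.42.0, no count filter, the dog as block, thinned sums, other class rules and each library left out. Dogs pair the samples by animal; same-dog deviations from the group means correlated at -0.276 (13170 genes, 2 pairs). Levels for naming genes (10 members; of the pathway list, the 5 largest fitted differences in each direction among genes with at least 50 UMIs whose groups do not overlap) used CPM without the dominant features. One of the genes most like a member is not reported here.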

Additional observations from a re-analysis of the deposited data

How the results depend on the processing

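Limits first: 1 graft and 2 dogs, 241 nuclei in 1 distended vein, and shallow control libraries bound every comparison, and the NOS1 and NOS2 counts are small. The cause of each difference below was not tested. Crossed dogs and the stricter and voted class rules were chosen after the data were seen.

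Counts of genes called by edgeR are given for distended against control, grafted against control and grafted against distended veins. DESeq2 called 1, 116 and 32 in the whole vein, 0, 76 and 12 in endothelial-like nuclei, and 0, 32 and 11 in fibroblast-like nuclei. Without a count filter the numbers were 4, 249 and 97, then 7, 245 and 62, then 0, 11 and 2442, and the median of all genes for the graft against the control veins in the whole vein moved to 1.014 on the log2 scale. With the dog as a replicate block they were 0, 0 and 0, then 0, 6 and 0, then 1, 14 and 363, and no member's call changed. Same-dog deviations correlated negatively. With the dogs crossed, against the labels, the calls were 9, 85 and 15, then 11, 218 and 21, then 0, 1 and 0. They included NOS1 in the graft against the control veins, in the whole vein and in endothelial-like nuclei.

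In fibroblast-like nuclei the grafted against control and grafted against distended counts (51 and 161) became 19 and 27 without the dominant features, 0 and 0 with thinned sums, 7 and 1053 with at least 200 genes per nucleus, and 10 and 1174 with a lead of at least 2 UMIs. Voted clusters gave 103 for the grafted against control comparison. Clusters named by the fixed rule gave 309 and 2018 at resolution 0.8, 116 and 243 at 0.4, and 301 and 1982 at 1.5, with 2 calls for distended against control at 0.8 and at 1.5. Endothelial-like clusters by that rule could not be fitted at 0.8, 0.4 or without the dominant features, for too few nuclei. At 1.5 the graft and the control vein of dog 2 held under 20 such nuclei and left the fit. Against the control vein of dog 1 alone, 3 of 4 members were lower in the distended veins.

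Leaving out each library in turn gave 0 to 219, 0 to 646 and 0 to 468 calls in the whole vein, 0 to 255, 0 to 848 and 0 to 511 in endothelial-like nuclei, and 0 to 2, 0 to 136 and 1 to 3019 in fibroblast-like nuclei. Without the distended vein of dog 1 the 3 whole-vein counts were 219, 646 and 6, and without that of dog 2 they were 0, 504 and 468. The endothelial-like counts were 255, 740 and 7 without the distended vein of dog 1, and 4, 848 and 511 without that of dog 2. The number of lower members ran from 5 to 8, 8 to 9 and 4 to 8 in the whole vein, and from 5 to 7, 6 to 8 and 3 to 8 in endothelial-like nuclei.

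Of the log2 fold changes recomputed for single genes, 826 kept their direction and side of the threshold, 43 passed it, 3 no longer did and 41 changed sign. In distended against control whole veins GUCY1A2 was -0.0145 with DESeq2 and -0.0854 with at least 200 genes, PDE5A -0.56 with the replicate block and -0.44 with crossed dogs, and NOSTRIN -0.13 and -0.11. In the graft against the control veins NOS3 was 0.14 without a filter and 0.0483 with the block, and 0.0401 in endothelial-like nuclei with crossed dogs. In the graft against the distended veins NOS3 was 0.17 without a filter and 0.13 with the block, PDE3A -0.38 with the block and -0.28 crossed, PRKG1 0.20 and PDE8B 0.16 crossed. In endothelial-like nuclei of that comparison PRKG1 was 0.19 crossed and PDE3A 0.22 without a filter.

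With a library left out, signs changed over these ranges. For distended against control whole veins they were -0.9998 to 1.49 for GUCY1A2, -0.48 to 0.29 for NOS3, -2.18 to 0.0491 for PRKG1, -1.83 to 0.0339 for PDE3A, -2.87 to 1.04 for PDE5A and -0.99 to 0.61 for NOSTRIN, and in endothelial-like nuclei -4.85 to 0.41 for GUCY1A1, -0.15 to 0.73 for NOS3 and -1.39 to 1.49 for NOSTRIN. For the graft against the control veins they were -1.63 to 0.24 for PDE3A, and -0.74 to 0.15 for NOS3 in endothelial-like nuclei. For the graft against the distended veins they were -3.32 to 0.88 for GUCY1A1, -0.97 to 0.41 for GUCY1B1, -0.52 to 0.25 for NOS3, -4.32 to 2.43 for NOS1 and -1.46 to 0.77 for PRKG1, and in endothelial-like nuclei -4.25 to 1.04 for GUCY1A1, -1.94 to 0.54 for GUCY1B1, -5.26 to 2.43 for NOS1, -1.11 to 0.95 for PRKG1 and -0.35 to 0.23 for PDE3A. Shares of positive nuclei moved by more than their interval in 50 of 79 recomputations, all by thinning.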

Other observations

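Within endothelial-like nuclei the cyclase genes were not spread evenly over clusters. In cluster 15, whose leading genes include ADAMTS18, CDH8 and KCNN3 and GUCY1A1 itself, GUCY1A1 had 1040 CPM in the distended vein of dog 1 (294 nuclei) and 999.9 in the control vein of dog 2 (37 nuclei). In cluster 18, led by IQCN, AQP1 and FOSB, it had 672.9 CPM in the control vein of dog 2 (350 nuclei). NOS3 was highest in CPM among the clusters of over 100 nuclei in cluster 3, led by KIT, ANKRD1 and KCNJ3, with 401.1 CPM in the graft, where 54.2% of its 360 nuclei had a UMI. The members and the pathway list were left out of the variable genes from which these clusters were drawn. Many clusters come mostly from 1 library, so the values are descriptions. Cluster 15 also held 51 nuclei of the control vein of dog 1, and cluster 18 held 125 of the distended vein of dog 1. No level is given here for those nuclei.

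A NOS3 UMI was found in 28.4% of 250 NOSTRIN-positive and 25.3% of NOSTRIN-negative endothelial-like nuclei (median depths 1018 and 948.5 UMIs). By library the shares were 49.3% and 43.2% in the graft, 21.5% and 16.7% (dog 1) and 55.6% and 18.3% (dog 2) in the distended veins, and 11.6% and 7.68% (dog 1) and 11.1% and 7.99% (dog 2) in the control veins, higher among positive nuclei in each. The 55.6% is 5 of 9 nuclei. Positive nuclei had the higher median depth in every library but the control vein of dog 2 (300 against 335.5 UMIs), and the part of depth was not tested. Nuclei with a NOS3 UMI had a GUCY1A1 UMI in 19.5% of cases and those without in 20.9%, with median depths of 3253 and 676.5 UMIs. Libraries differed in direction: the shares were 17.5% and 14.2% in the graft, 32.7% and 37.7% (dog 1) and 6.06% and 1.55% (dog 2) in the distended veins, and 31.3% and 20.0% (dog 1) and 10.8% and 20.0% (dog 2) in the control veins.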
